A study of Ambystoma mexicanum with 198 samples.

Results

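The genes described here encode the machinery that removes introns from pre-mRNA, and the hnRNP and RBM proteins that bind nascent RNA beside it. They were chosen by their symbols: genes whose platform symbol starts with SF3, SRSF, SFRS, HNRN, HNRP, SNRP, PRPF, U2AF, DHX, SRRM, TRA2 or CWC, or with LSM or RBM followed by a digit, and SF1. A probe with such a symbol was present for 100 of the 8639 genes named on the array. These 100 genes have 153 probes. Where a gene had several, the brightest by its mean over all arrays stands for it. No probe carried an SRSF or SFRS symbol, so the classical SR proteins are not described here, and the snRNP genes that carry SNRNP symbols lie outside the choice. The choice also takes in 9 DHX helicases that are not spliceosomal or not known as such, and these were kept as a class of their own. Other genes with a role outside splicing, such as LSM14B, stayed in the class of their symbol.

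RNA of the outermost 1 mm of axolotl (*Ambystoma mexicanum*) forelimbs, amputated at mid zeugopod between elbow and wrist, was measured on the Amby002 Affymetrix array at 20 time points from 0 to 28 days post-amputation (DPA). There were 198 arrays, with 9 for 16 DPA, 9 for 28 DPA and 10 for every other time point, and 0 DPA is the baseline. Its tissue was taken at the amputation itself, and the study treats it as uninjured limb. The animals came from an axolotl stock center and were several months old, and the methods name no transgene or mutation. They were anesthetized with benzocaine for the amputation, and the methods describe no other drug. The methods state that RNA was extracted from individual tissue samples, and which limbs shared an animal is not given, so the p-values measure the spread between samples. Values are log2 intensities. They were compared only within a probe, because the intensities of different probes are not on a common scale.

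The spliceosome assembles anew on each intron. The U1 snRNP pairs with the 5′ splice site, SF1 and the U2AF proteins mark the branch point and the 3′ splice site, and the U2 snRNP with its SF3a and SF3b subunits then takes the branch point over. The PRPF proteins serve the tri-snRNP and the catalytic core, and DEAH-box helicases of the DHX family remodel the complex between its steps. Sm and LSm proteins form rings around the snRNAs, while hnRNP and SR proteins bind exons and introns and sway which splice sites are used. In the regenerating axolotl limb, wound healing is followed by the growth of a blastema, a mound of dividing progenitor cells.

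The mean level of these genes climbed slowly, with small falls at 0.5 and 10 DPA and a larger one at 28 DPA. A gene was called higher or lower when limma's Benjamini-Hochberg adjusted p over all 20035 probes was under 0.05 and the log2 difference was at least 0.58, which is 1.5-fold. At 24 DPA 42 of the 100 genes were higher than at 0 DPA and 0 were lower. Over all probes 12.9% were higher and 9.30% lower by the same rule. On the adjusted p alone 76 genes were higher and 2 lower, against 30.1% and 17.1% of all probes, and at an unadjusted p under 0.05 limma also had 2 lower. The methods' t-test called 0 lower as well. The median log2 difference of the 100 genes was 0.51 at 24 DPA, against 0.06 over all probes, and 89 of the 100 differences were above 0. Over the 19 later time points, which all share the 0 DPA arrays, 50 genes were higher at least once and 2 were lower at least once, against 24.3% and 17.7% of all probes. The remaining 48 genes were past the threshold at no time point.

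**Figure D1:**
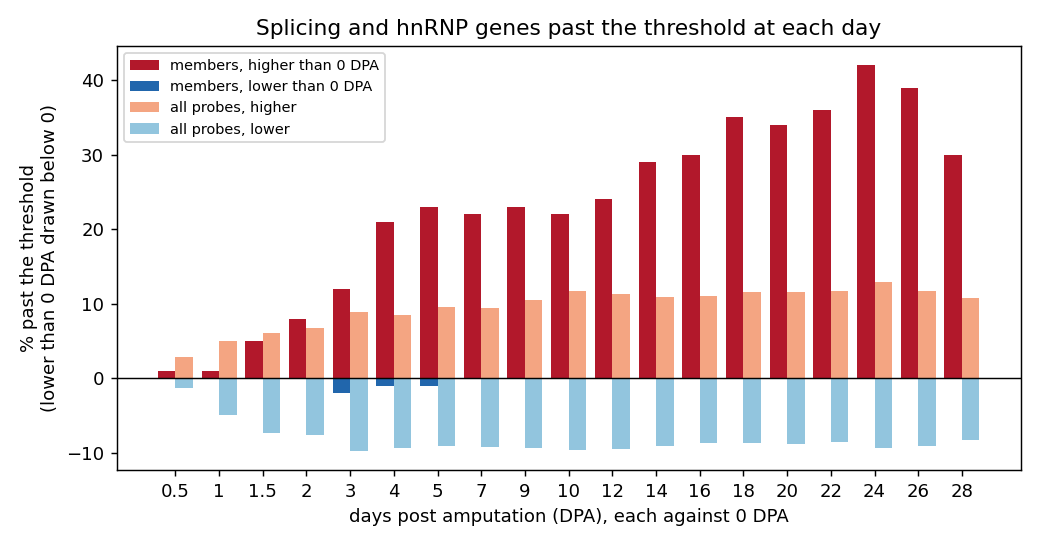
Share of the 100 splicing and hnRNP genes (dark bars) and of all 20035 probes (light bars) past the threshold at each day against 0 DPA, in percent. Bars above 0 count values higher than 0 DPA and bars below 0 count lower ones. The genes' share higher reaches 42% at 24 DPA, and lower calls appear only at 3, 4 and 5 DPA.

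The climb had a quiet start. At 0.5 DPA the median difference was -0.02, with 44 of the 100 genes above 0. By the full rule 1 gene was higher and 0 were lower there, against 3.07% and 1.44% of all named genes. At an unadjusted p under 0.05 limma had 2 higher and 16 lower. At 1 DPA 1 gene was higher and 0 were lower, against 4.95% and 4.97% of all probes, and the median difference was 0.00. At an unadjusted p under 0.05 limma had 16 higher and 11 lower. At 3 DPA 12 genes were higher and 2 lower (8.87% and 9.74% of all probes). At 4 DPA 21 were higher and 1 lower (8.56% and 9.31%), or 16 and 2 without replicate 5 of 0 DPA, and at 10 DPA 22 were higher and 0 lower (11.7% and 9.67%). At 18 DPA 35 were higher and 0 lower (11.6% and 8.70%). At 10 and 18 DPA limma had 6 and 3 lower at an unadjusted p under 0.05. The count was greatest at 24 DPA and stood at 30 higher and 0 lower at 28 DPA (10.7% and 8.31%), where 29 of the 42 genes called at 24 DPA were still called. The highest of the 20 time-point means fell at 22, 24 or 26 DPA for 68 of the 100 genes. The lowest fell between 0 and 2 DPA for 84, and at 0 DPA itself for 27.

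The same course is seen on single arrays when the differences from each gene's 0 DPA mean are averaged over the 100 genes. At 2, 5, 10, 18 and 24 DPA this mean difference was 0.12 ± 0.05, 0.33 ± 0.03, 0.33 ± 0.07, 0.47 ± 0.04 and 0.52 ± 0.04 (SD, n = 10 each). It ranged from 0.46 to 0.59 over the 24 DPA arrays, and from -0.14 to 0.11 over the 0 DPA arrays. The 24 DPA range does not overlap the 0 DPA range. Between 5 and 12 DPA the mean changed little, and at 28 DPA it was 0.44 ± 0.04 (SD, n = 9).

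**Figure D2:**
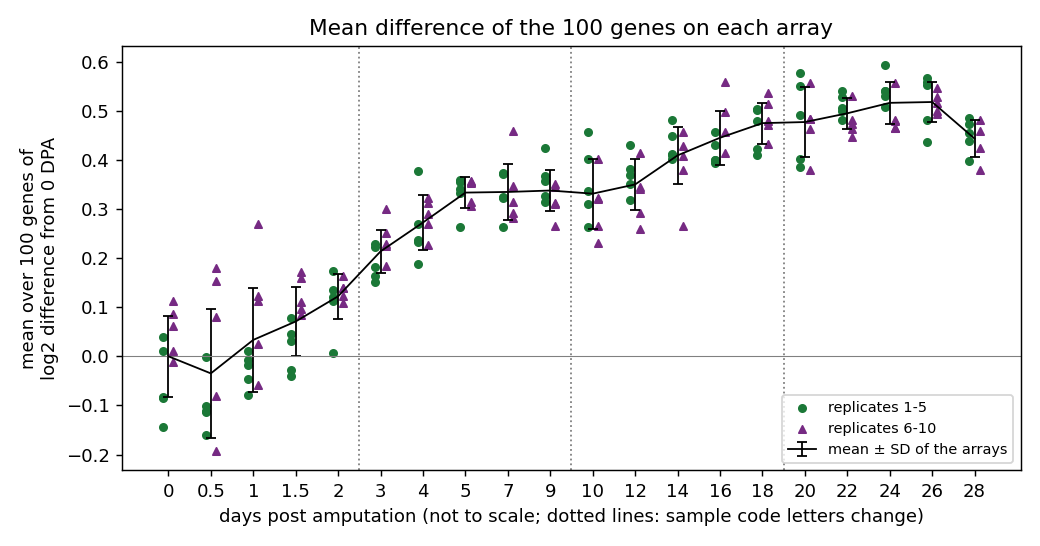
Mean over the 100 genes of the log2 difference from each gene's 0 DPA mean, for each array, by days post-amputation (days are equally spaced, not to scale). Points are arrays of replicates 1-5 (circles) and 6-10 (triangles), the line joins the means with bars of ± SD, and dotted lines mark where the sample code letters change. All 24 DPA arrays lie between 0.46 and 0.59, above every 0 DPA array.

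Between neighbouring time points few probes of any kind crossed the threshold. Over the 18 steps from 0.5 DPA on, 1 of the 100 genes was higher at least once (HNRNPA1, at 3 against 2 DPA) and 0 were lower, against 3.73% and 2.41% of all probes, and 7 of the steps had 0 calls over all probes. Spans of several days held more of the genes when the fold threshold was dropped. At 9 DPA against 3 DPA, 0 genes passed the full rule in either direction (2.40% of all probes higher, 2.91% lower), while 28 were higher and 0 lower on the adjusted p alone, against 9.31% and 5.61% of all probes. At 18 DPA against 10 DPA, 0 genes were higher and 1 was lower by the full rule (2.56% and 3.75%), and 37 were higher and 2 lower on the adjusted p alone, against 13.7% and 9.01%. The median differences were 0.12 and 0.15 in these spans, with 83 and 90 of the 100 genes above 0. At 28 DPA against 20 DPA 0 genes passed in either direction (0.449% and 0.978%) and the median was -0.02, with 2 higher and 12 lower at an unadjusted p under 0.05. The last step ran the other way: at 28 DPA 22 genes lay above and 78 below their 26 DPA means, with a median of -0.07. By limma 0 of them passed the threshold, and 3 were higher and 27 lower at an unadjusted p under 0.05.

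Each array carries a sample code. Its letters switch from 2 to 3 DPA and from 18 to 20 DPA in all replicates, and from 9 to 10 DPA in replicates 6 to 10 alone. The labels do not explain the letters, and where they switch, time and code cannot be told apart. From 3 to 18 DPA the letters of all replicates differ from those at 0 DPA. Nor can time and code be told apart when these days are compared with 0 DPA. At 3 against 2 DPA 1 gene was higher and 0 lower (1.64% and 0.913% of all probes), a share near that of all probes. On the adjusted p alone 13 were higher and 3 lower there (4.92% and 3.77%), and at an unadjusted p under 0.05 limma had 32 higher and 7 lower. The mean difference from 0 DPA was 0.21 ± 0.04 at 3 DPA and 0.12 ± 0.05 at 2 DPA (SD, n = 10 each), the largest step of this mean between neighbouring time points. At 10 against 9 DPA 0 genes passed either way (0.00499% of all probes each), and limma had 5 higher and 3 lower at an unadjusted p under 0.05. At 20 against 18 DPA 0 passed either way (0.329% and 0.0399%), and limma had 5 higher and 4 lower at that level. The methods' t-test had 0 past its threshold in both of these. All these counts are of the brightest probes. The study lists a dimmer DHX38 probe as different between 9 and 10 DPA. Between 2 and 3 DPA it lists dimmer probes of HNRNPM, RBM5 and RBM14. Replicates 1 to 5 have the same letters at 24 and 0 DPA. In these replicates alone 50 genes were higher and 0 lower at 24 DPA (15.3% and 9.89% of all probes), with a median difference of 0.58. In replicates 6 to 10, where the letters differ, 32 were higher and 0 lower (10.6% and 8.07%), with a median of 0.44.

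**Figure D3:**
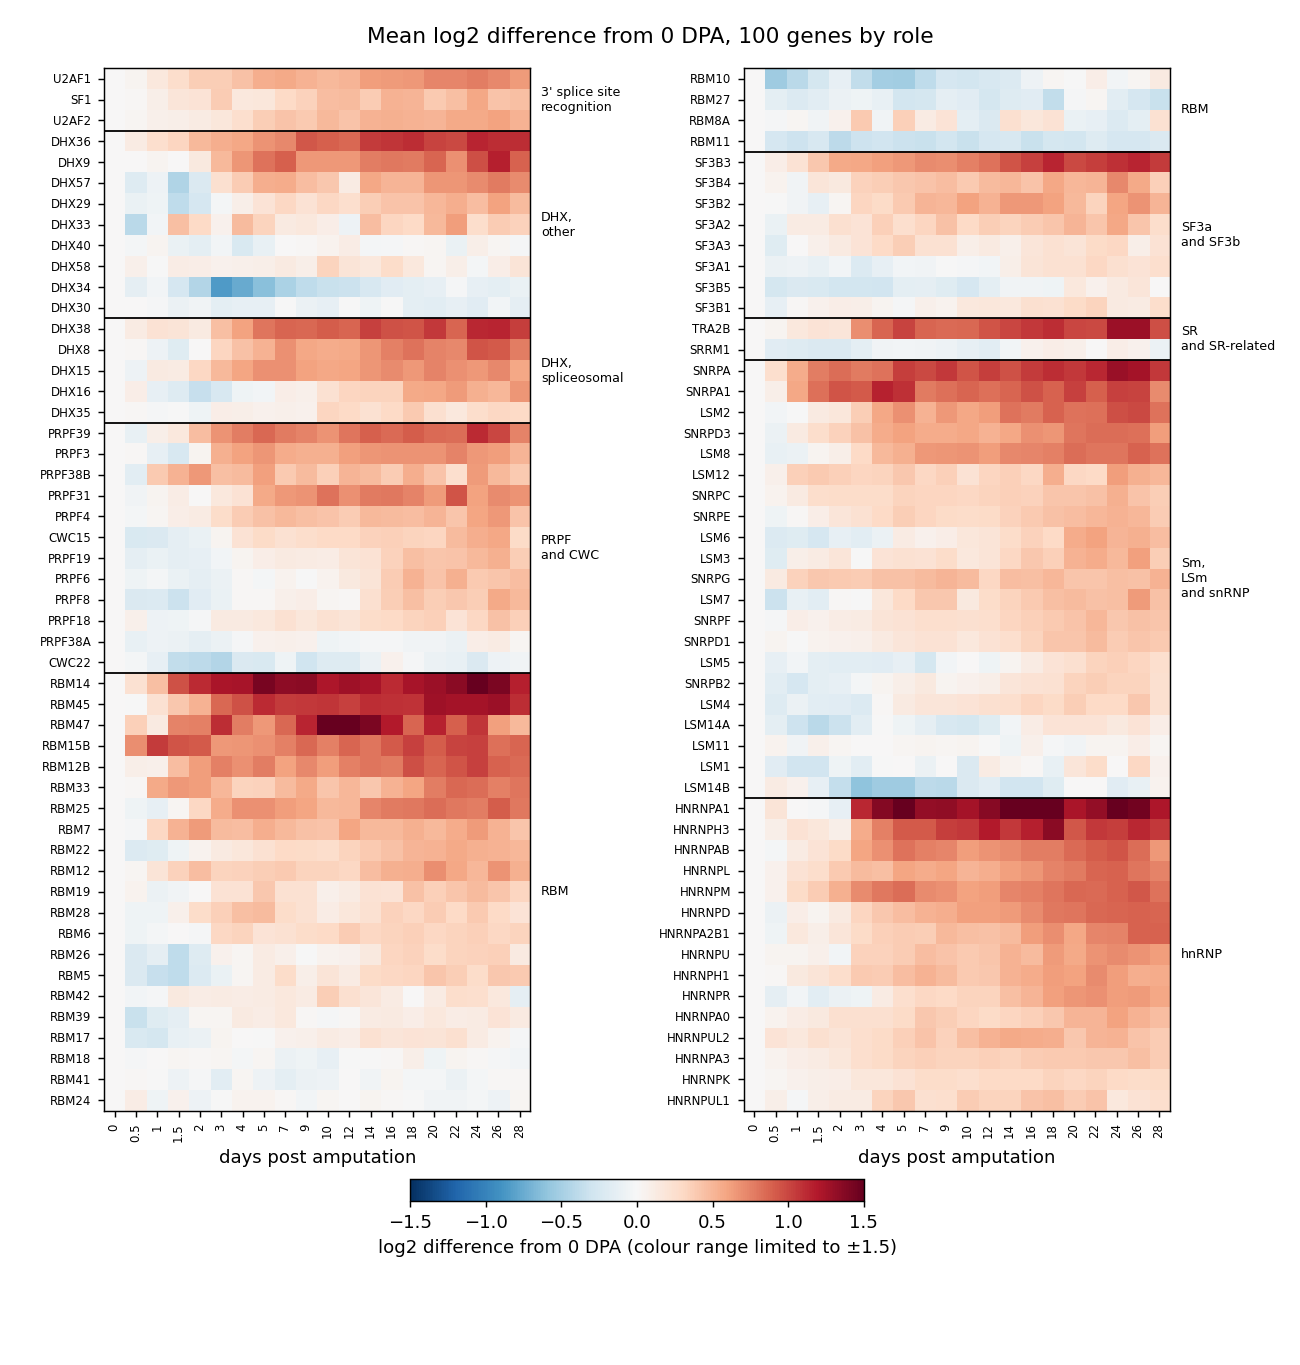
Mean log2 difference from 0 DPA of each of the 100 genes (rows, grouped by role and ordered within a role by the 24 DPA difference) at the 20 time points (columns, days post-amputation). Red is higher and blue lower than at 0 DPA, with colours limited to ±1.5. Of the 15 hnRNP genes, all lie above 0 at 24 DPA, whereas DHX34 and LSM14B are blue around 3 DPA.

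Beside the class counts at 24 DPA given below, 12.9% of all probes were higher and 9.30% lower. Of the 9 role classes the hnRNP genes had the highest median difference at 24 DPA. All 15 were above their 0 DPA mean at 24 DPA, 11 were past the threshold, and the median was 0.71. HNRNPA1, a shuttling protein that represses exons, ranged from 9.68 to 11.09 (median 10.09) over the 24 DPA arrays, and from 6.42 to 9.81 (median 8.58) over the 0 DPA arrays. A single 0 DPA array lay within the range of the 24 DPA arrays, and the difference was 1.59 with an SE of 0.30 (limma adjusted p = 0.000146), or 3.00-fold. Its means were 8.55, 8.55 and 8.42 at 0, 1 and 2 DPA and 9.68, 9.92 and 10.19 at 3, 4 and 18 DPA. At 3 DPA it ranged from 9.27 to 10.10 (median 9.72), and at 2 DPA from 6.69 to 9.42 (median 8.58). The difference of 1.26 with an SE of 0.27 (limma adjusted p = 0.00609) stood at 1.59 in replicates 1 to 5 and at 0.93 in replicates 6 to 10, where it did not pass (adjusted p = 0.116).

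HNRNPH3, which binds G-rich stretches, ranged from 9.26 to 9.99 (median 9.73) at 24 DPA and from 6.70 to 9.56 (median 8.73) at 0 DPA. Its difference was 1.04 with an SE of 0.25 (limma adjusted p = 0.00164). The lowest 0 DPA array of HNRNPA1, HNRNPH3 and HNRNPU was the same one, replicate 5. Without it HNRNPA1 differed by 1.35 and HNRNPH3 by 0.82, both still past the threshold, and 41 of the 100 genes were higher at 24 DPA. HNRNPA1 had low arrays on other early days too. These were 7.02 in replicate 4 of 0.5 DPA, 6.93 in replicate 5 of 1.5 DPA and 6.69 in replicate 4 of 2 DPA. HNRNPU, the scaffold protein of the nuclear matrix, was tighter, at 12.41 to 12.74 (median 12.59) on the 24 DPA arrays and 11.24 to 12.06 (median 11.94) on the 0 DPA arrays. It was first called at 18 DPA, and at 24 DPA it differed by 0.71 with an SE of 0.08 (limma adjusted p = 2.95e-07).

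The remaining hnRNP genes, all binders of nascent RNA, differed by 0.16 to 0.95 at 24 DPA. HNRNPAB, HNRNPL, HNRNPM and HNRNPD were higher at 24 DPA by 0.95, 0.89, 0.89 and 0.87. HNRNPA2B1, HNRNPH1, HNRNPR and HNRNPA0 were higher by 0.75, 0.63, 0.62 and 0.60. HNRNPK and HNRNPA3 differed by 0.30 and 0.41 and stayed under the fold threshold, although the arrays of the 2 days did not overlap. These values are those of the brightest probes: the 8 other HNRNPK probes differed by 0.37 to 0.88, 5 of them by at least 0.58, and the other HNRNPA3 probe by 1.15. HNRNPUL2 and HNRNPUL1 differed by 0.52 and 0.16. Their probes were dim, with means over all arrays of 4.11 and 5.05, above 23.1% and 40.9% of all probes.

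**Figure D4:**
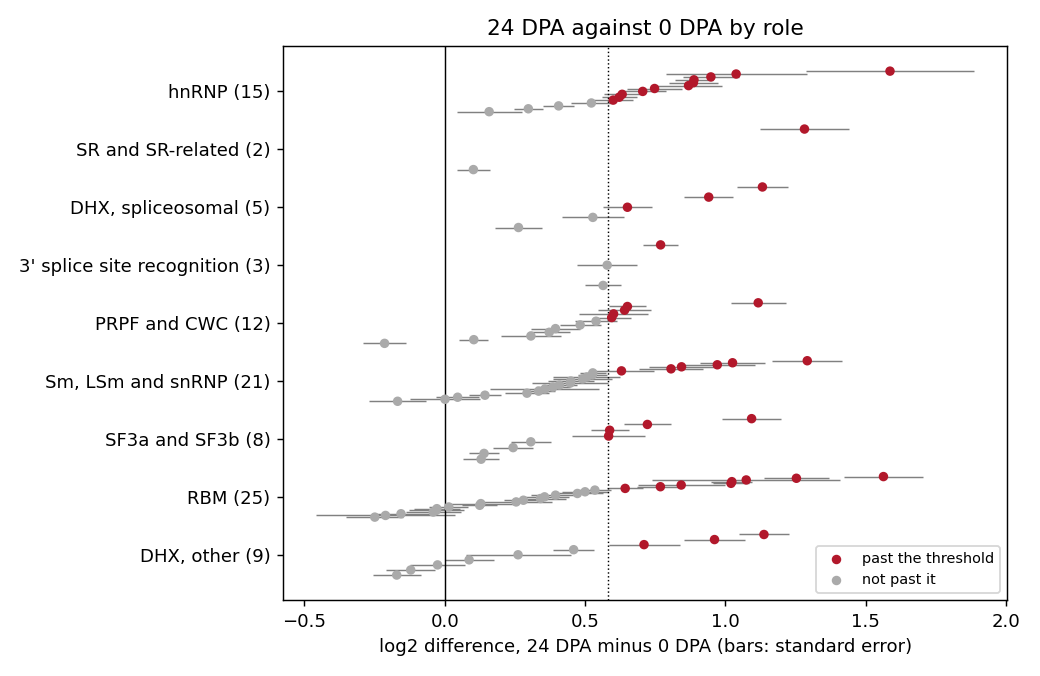
Log2 difference at 24 DPA minus 0 DPA for each of the 100 genes, by role (number of genes in brackets), with bars of the standard error. Red points are past the threshold and the dotted line marks 0.58. Of 15 hnRNP genes 11 are past it, and no gene of any role is past it on the lower side.

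TRA2B, an SR-related protein that activates exons, was higher than at 0 DPA from 3 DPA on at 15 of the 19 time points. It lay between 12.60 and 12.86 (median 12.75) on the 24 DPA arrays and between 10.17 and 12.03 (median 11.57) on the 0 DPA arrays, without overlap. The difference was 1.28 with an SE of 0.16 (limma adjusted p = 8.44e-07), and 1.14 without replicate 5 of 0 DPA. SRRM1, the other gene of this class and an exon junction coactivator, ranged from 10.90 to 11.10 (median 10.96) at 24 DPA and from 10.65 to 11.07 (median 10.89) at 0 DPA, a difference of 0.10 with an SE of 0.06 (adjusted p = 0.167).

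Among the 21 Sm, LSm and other snRNP protein genes, 6 were higher at 24 DPA, 20 were above 0, and the median difference was 0.45. SNRPA, a protein of the U1 snRNP, was among the first to move. It was called from 1.5 DPA on, at 17 of the 19 time points, and its means were 10.44, 10.99, 11.27 and 11.73 at 0, 1, 2 and 24 DPA. The 24 DPA arrays lay between 11.44 and 12.08 (median 11.79) and the 0 DPA arrays between 9.82 and 11.00 (median 10.53). They did not overlap, and the difference was 1.29 with an SE of 0.13 (limma adjusted p = 2.55e-08). SNRPA1, a protein of the U2 snRNP, was also called from 1.5 DPA on. Its means were 7.15, 8.30, 8.17 and 7.86 at 0, 4, 24 and 28 DPA. Its 24 DPA arrays ran from 7.82 to 8.50 (median 8.13) and its 0 DPA arrays from 6.60 to 7.56 (median 7.13), and the difference was 1.03 with an SE of 0.12 (limma adjusted p = 2.14e-07).

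LSM2, part of the LSm ring of the U6 snRNA, had the highest correlation with the mean of the other genes over the 20 time points (r = 0.99). It was first called at 4 DPA and was called at 12 of the 19 time points, and it was higher by 0.97 with an SE of 0.14 at 24 DPA (limma adjusted p = 3.98e-06). Its arrays lay between 9.95 and 10.38 (median 10.22) at 24 DPA and between 8.59 and 9.75 (median 9.36) at 0 DPA. The measured genes of the Sm core moved less than LSM2, around the class median of 0.45. SNRPD3 was higher by 0.84, whereas SNRPE, SNRPG, SNRPF and SNRPD1 differed by 0.53, 0.45, 0.41 and 0.39, under the fold threshold. SNRPD1 nevertheless lay between 13.24 and 13.54 (median 13.36) on the 24 DPA arrays and between 12.80 and 13.21 (median 12.98) on the 0 DPA arrays, without overlap (SE 0.06, limma adjusted p = 1.45e-05). In all, the 24 DPA arrays lay wholly above the 0 DPA arrays for 40 of the 100 genes, against 8.80% of all probes, and 8 of these 40 were under the fold threshold.

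Of the recognition factors of the 3′ splice site, U2AF1 was higher at 24 DPA and the others lay just under the fold threshold. U2AF1, the small subunit that reads the AG at the end of the intron, lay between 10.93 and 11.32 (median 11.16) on the 24 DPA arrays and between 10.17 and 10.53 (median 10.37) on the 0 DPA arrays. The groups did not overlap, the difference was 0.77 with an SE of 0.06 (limma adjusted p = 1.31e-09), and the gene was first called at 14 DPA. Its means were 10.36, 10.73, 10.91 and 11.13 at 0, 2, 5 and 24 DPA, so much of the difference was present before that call. U2AF2, the large subunit that binds the polypyrimidine tract, ranged from 12.19 to 12.58 (median 12.46) at 24 DPA and from 11.62 to 12.03 (median 11.92) at 0 DPA. It differed by 0.56 with an SE of 0.06, just under the fold threshold, and passed it only at 26 DPA. SF1, which binds the branch point before the U2 snRNP, ranged from 7.16 to 7.78 (median 7.36) at 24 DPA and from 6.21 to 7.22 (median 6.84) at 0 DPA, and differed by 0.58 on rounding, without reaching the threshold (SE 0.11).

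Within SF3a and SF3b, the U2 snRNP complexes that hold the branch point, 4 of 8 genes were higher at 24 DPA and the median difference was 0.45. SF3B3, a scaffold subunit of SF3b, ranged from 8.78 to 9.43 (median 9.30) on the 24 DPA arrays and from 7.71 to 8.38 (median 8.08) on the 0 DPA arrays, with a difference of 1.09 and an SE of 0.11 (limma adjusted p = 2.31e-08). SF3B1, the largest subunit of SF3b and the one that grips the branch helix, ranged from 11.21 to 11.55 (median 11.41) at 24 DPA and from 11.04 to 11.44 (median 11.28) at 0 DPA. Its difference was 0.13 with an SE of 0.06 (adjusted p = 0.102). SF3A1 differed by 0.24 with an SE of 0.07 (adjusted p = 0.00708) and stayed under the fold threshold. SF3B2 and SF3A2 were only just past the threshold, at 0.59 and 0.58.

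The PRPF and CWC genes included 5 of 12 that were higher at 24 DPA, with a median difference of 0.51. PRPF39, a U1 snRNP-associated protein, lay between 9.56 and 10.00 (median 9.91) at 24 DPA and between 8.37 and 9.32 (median 8.72) at 0 DPA, and the difference was 1.12 with an SE of 0.10 (limma adjusted p = 5.15e-09). PRPF31, which helps to hold the tri-snRNP together, differed by 0.60 with an SE of 0.12 at 24 DPA (limma adjusted p = 0.000324), and its means were 6.94, 7.10, 7.61 and 7.75 at 0, 3, 9 and 10 DPA. The class median of the correlation with the mean of the other genes over the time points was 0.90. The gene of the catalytic core protein PRPF8 was close to it, at 0.89. Its means were 8.71, 8.39, 8.73, 8.73, 9.16 and 9.28 at 0, 1.5, 4, 12, 18 and 26 DPA, so that an early dip of -0.32 (SE 0.07) was followed by a late climb. On the 24 DPA arrays PRPF8 lay between 8.82 and 9.30 (median 9.13) and on the 0 DPA arrays between 8.50 and 8.98 (median 8.74), a difference of 0.37 with an SE of 0.07 (adjusted p = 0.000211), and at 26 DPA it differed by 0.57. PRPF19, a ubiquitin ligase of the activated spliceosome, showed a difference of 0.48 with an SE of 0.07 at 24 DPA, and its means stayed between 9.38 and 9.63 at 2, 3, 4, 7, 9 and 10 DPA before standing at 9.95 at 18 DPA.

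**Figure D5:**
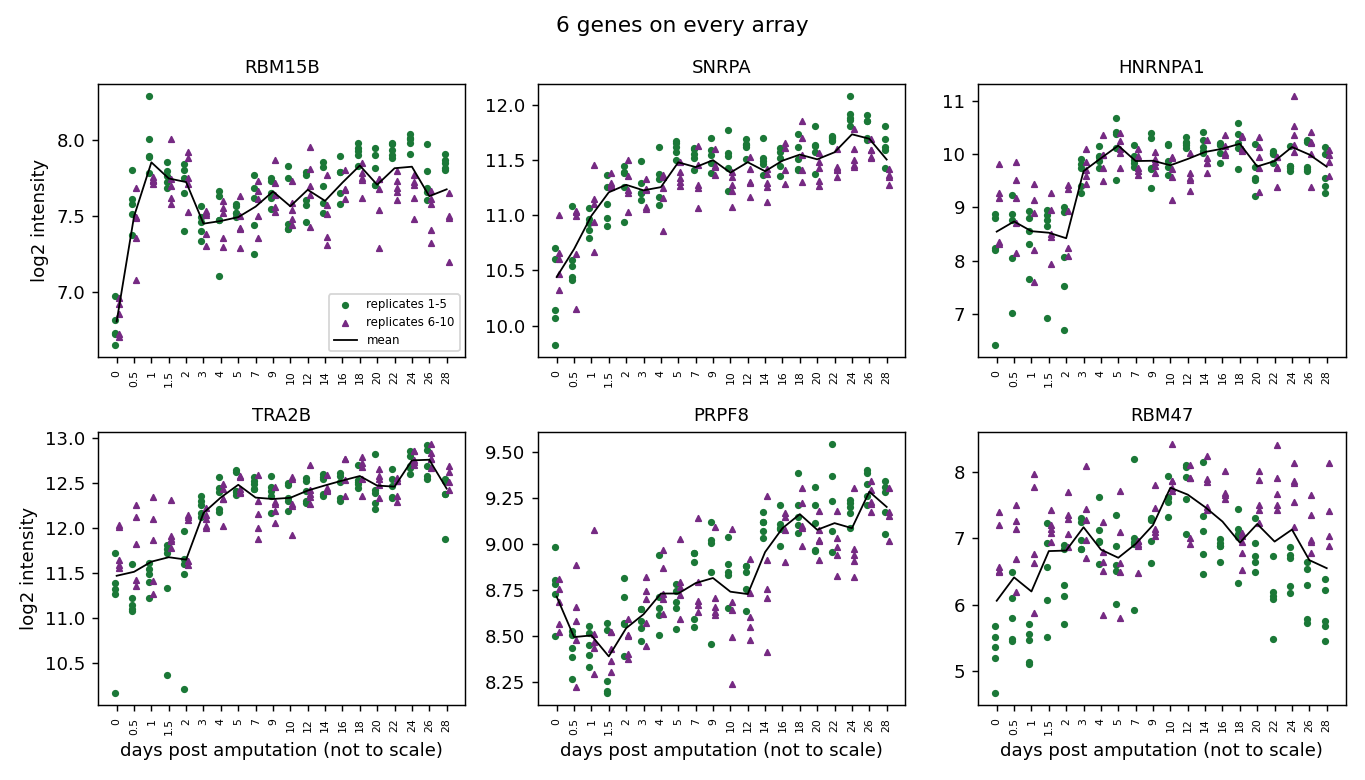
Log2 intensity of 6 genes on every array by days post-amputation (days equally spaced, not to scale). Circles are replicates 1-5, triangles replicates 6-10, and the line joins the means. RBM15B and SNRPA are higher within the first 2 days, HNRNPA1 and TRA2B are higher from 3 DPA, PRPF8 climbs after 12 DPA, and RBM47 has its highest mean, 7.76, at 10 DPA.

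Of the 5 DHX helicases of the spliceosome 3 were higher at 24 DPA, with a class median of 0.65. DHX38, the PRP16 helicase that remodels the complex between the catalytic steps, lay between 8.62 and 9.15 (median 8.92) on the 24 DPA arrays and between 7.41 and 8.08 (median 7.85) on the 0 DPA arrays. It differed by 1.13 with an SE of 0.09 (limma adjusted p = 1.66e-09) and by almost the same amount in replicates 1 to 5 (1.14) and 6 to 10 (1.12). DHX8, which releases the spliced mRNA, was higher by 0.94 with an SE of 0.09 (limma adjusted p = 1.44e-08). A dimmer probe of this gene differed by -0.05, at low means of 4.73 at 24 DPA and 4.78 at 0 DPA. DHX15, which takes the intron lariat complex apart, was higher by 0.65 with an SE of 0.09 (limma adjusted p = 2.40e-06), first at 4 DPA.

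The 9 other DHX helicases were the most mixed class, with 3 higher at 24 DPA and a median of 0.26. DHX36, which unwinds G-quadruplexes, was higher by 1.14. DHX9, an RNA helicase with many roles in transcription, ranged from 9.91 to 10.28 (median 10.08) at 24 DPA and from 8.67 to 9.69 (median 9.10) at 0 DPA, a difference of 0.96 with an SE of 0.11 (limma adjusted p = 2.59e-07). DHX57 was higher by 0.71 with an SE of 0.13 (limma adjusted p = 7.47e-05). DHX34, a factor of nonsense-mediated decay, was 1 of the 2 genes called lower. It ranged from 6.19 to 6.97 (median 6.58) on the 3 DPA arrays and from 6.99 to 7.72 (median 7.42) on the 0 DPA arrays, without overlap. It was lower at 3, 4 and 5 DPA, by -0.85, -0.75 and -0.62 (limma adjusted p = 2.76e-07, 3.50e-07 and 0.000396), and at 24 DPA its difference was -0.12. The other was LSM14B, a protein of cytoplasmic RNA granules, which differed by -0.60 with an SE of 0.12 at 3 DPA (limma adjusted p = 0.000489) and by -0.17 at 24 DPA. Both were named after their values were seen.

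The RBM genes, RNA-binding proteins of varied function, supplied 5 of the 8 genes first called between 0.5 and 2 DPA. At 24 DPA 8 of 25 were higher and the median was 0.36. RBM15B, a partner of the m6A methyltransferase, was higher than at 0 DPA at all 19 later time points. It ranged from 7.71 to 8.29 (median 7.77) on the 1 DPA arrays and from 6.65 to 6.97 (median 6.77) on the 0 DPA arrays, without overlap. The differences at 0.5, 1 and 24 DPA were 0.69, 1.05 and 1.02, and the SEs were 0.08, 0.07 and 0.07 (limma adjusted p = 2.33e-10 at 24 DPA). Of the 0.5 DPA arrays 2 have a source name that gives another time, and without them RBM15B differed by 0.71 with an SE of 0.06. RBM14, a coactivator found in nuclear paraspeckles, had means of 9.69, 10.14, 10.80 and 11.25 at 0, 1, 2 and 24 DPA. Its 24 DPA arrays lay between 11.02 and 11.37 (median 11.28) and its 0 DPA arrays between 9.17 and 10.58 (median 9.65). The difference was 1.56 with an SE of 0.14 (limma adjusted p = 8.22e-09), 1.98 in replicates 1 to 5 and 1.14 in replicates 6 to 10, and these values differed from each other (limma interaction adjusted p = 0.0200).

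RBM47, which assists RNA editing and is known from epithelia, had its highest mean in mid-course. Its means were 6.06, 7.76, 6.93 and 6.55 at 0, 10, 18 and 28 DPA. At 18 DPA it ranged from 6.33 to 7.44 (median 7.03) and at 10 DPA from 7.31 to 8.42 (median 7.74), so that the groups overlapped little. The fall was -0.83 with an SE of 0.13 (limma adjusted p = 0.000128), -1.06 in replicates 6 to 10 and -0.60 in replicates 1 to 5, where it did not pass (adjusted p = 0.0815). Over the same span 6 of 6 macrophage and phagocyte markers were lower, with a median of -1.05, and their mean difference from 0 DPA ranged from -0.08 to 1.24 on the 18 DPA arrays and from 1.00 to 2.33 on the 10 DPA arrays. CSF1R, a defining macrophage gene, was at 6.44 at 18 DPA and 8.02 at 10 DPA. Of 5 epidermis markers 1 was lower, with a median of -0.09. Their mean difference ranged from 0.91 to 1.48 on the 18 DPA arrays and from 1.00 to 1.78 on the 10 DPA arrays. Over the 20 time points the epidermis mean was highest at 10 DPA (1.48), the day of RBM47's highest mean. The macrophage and phagocyte mean was highest at 3 DPA (1.96). The part of either cell type in the RBM47 values was not tested. RBM47 was the gene called lower at 18 against 10 DPA. At 24 DPA against 0 DPA it was higher by 1.07 with an SE of 0.34. Its arrays ranged from 6.17 to 8.13 (median 7.02) at 24 DPA and from 4.67 to 7.40 (median 6.08) at 0 DPA. The sets of replicates did not overlap at either day. At 0 DPA replicates 1 to 5 ranged from 4.67 to 5.67 and replicates 6 to 10 from 6.49 to 7.40. At 24 DPA they ranged from 6.17 to 6.87 and from 7.17 to 8.13. Replicates 6 to 10 ranged from 6.52 to 7.07 at 18 DPA and from 7.42 to 8.40 at 22 DPA. In that set the 22 DPA values were thus above the 18 DPA values, but its code letters switch between these days. Time and code cannot be told apart there.

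Several RBM genes tied to the spliceosome or to muscle did not move past the threshold. An exception was RBM25, also tied to the spliceosome, which was higher by 0.77 at 24 DPA. It was called at 12 of the 19 later time points, first at 4 DPA. Dimmer RBM25 probes differed by 0.92, 0.04 and -0.61 at 24 DPA. RBM39, which works with U2AF2, differed by 0.13 with an SE of 0.12 at 24 DPA, and RBM8A, a core protein of the exon junction complex, by -0.21 with an SE of 0.25. RBM8A ranged from 6.95 to 9.13 (median 8.29) at 24 DPA and from 7.86 to 8.84 (median 8.17) at 0 DPA, so its 24 DPA arrays spread wider than its 0 DPA arrays. RBM24, a regulator of splicing in muscle, had its lowest mean, 4.40, at 2 DPA and its highest, 4.59, at 0.5 DPA. Its difference at 24 DPA was -0.03 with an SE of 0.10. The RBM24 probe was dim, with a mean over all arrays of 4.48, above 31.6% of all probes. Whether so dim a probe registers the gene was not tested. The 12 measured skeletal muscle markers were all lower at 24 DPA, with a median difference of -9.72.

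The day on which a gene was first called higher varied widely. By their brightest probes, the 8 genes first called between 0.5 and 2 DPA were RBM7, RBM12B, RBM14, RBM15B, RBM33, SNRPA, SNRPA1 and PRPF38B. There were 0 hnRNP, SF3 or DHX genes among them, although the study lists a dimmer HNRNPK probe as different in its first interval after amputation. Another 7 followed at 3 DPA (HNRNPA1, HNRNPAB, HNRNPM, TRA2B, PRPF39, RBM45 and RBM47) and 11 at 4 or 5 DPA, among them 4 DHX helicases. Between 7 and 12 DPA 5 genes were added, between 14 and 18 DPA 7, of which 4 were hnRNP genes, and between 20 and 28 DPA 12, of which 4 were LSm genes. A first call depends on the size of a gene's change and its spread, and the order was not tested. Between 3 and 18 DPA the code letters of all replicates differ from those at 0 DPA. Time and code cannot be told apart in the calls of these days. Of the 50 genes, 25 were called at 10 or more of the 19 time points and 9 at 1 only.

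Over the 20 time-point means, 64 of the 100 genes correlated above 0.80 with the mean of the other 99, against 17.2% of all named genes with the mean of the 100, and the median was 0.89. These correlations are a description over 20 means that share their arrays. The hnRNP genes had a class median of 0.95, and the RBM genes 0.69. The 8 genes with a negative correlation were RBM41, RBM18, RBM8A, LSM14B, RBM11, RBM27, RBM24 and DHX30, of which DHX30 was lowest at -0.50. Most of their probes were dim or nearly flat. RBM41, RBM11, RBM27, RBM24 and RBM18 had means over all arrays of 3.92, 3.94, 3.97, 4.48 and 4.60. The time-point means of DHX30 spanned 0.17. RBM8A and LSM14B were brighter, at 8.32 and 8.57. The choice of probe mattered for some genes: of 53 dimmer probes of 37 genes, 42 had the same sign at 24 DPA as the brightest probe of their gene. A dimmer PRPF38B probe differed by -2.85 against 0.64 for the brightest, and a dimmer RBM12 probe by -0.95 against 0.50.

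Splicing genes outside the choice, from a list of 70 with a probe, were also higher more often than lower. At 24 DPA 20 of the 70 were higher and 3 lower (12.9% and 9.30% of all probes), with a median of 0.38. As examples, the regulators ESRP2, of epithelial splicing, and PTBP1, of exon repression, were higher by 1.46 and 1.39. QKI and MBNL3 were lower by -0.71 and -0.59.

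The tissue changed in its cells over the same days, and a bulk array cannot tell fewer cells of a type from less RNA per cell. The 12 skeletal muscle markers averaged -9.09 relative to 0 DPA over the 24 DPA arrays, which ranged from -9.21 to -8.96, while the 0 DPA arrays ranged from -0.17 to 0.22. MYL1 and CKM, defining muscle genes, were at 3.92 and 4.66 at 24 DPA and at 14.69 and 14.60 at 0 DPA. Of 13 markers of dividing cells, 13 were higher at 24 DPA with a median of 1.11, and their mean difference per array ranged from 1.10 to 1.45 at 24 DPA and from -0.61 to 0.84 at 0 DPA. Of the 5 epidermis markers 4 were higher at 24 DPA with a median of 0.98, and their mean difference ranged from 0.92 to 1.55 at 24 DPA and from -0.30 to 0.34 at 0 DPA. Of 6 macrophage and phagocyte markers 1 was higher at 24 DPA (median 0.38), and of 4 cartilage markers 1 (median 0.58). The dividing cell markers and the 100 genes were alike at some steps and unlike at others. From 2 to 3 DPA the mean difference from 0 DPA went from -0.20 to 0.44 for these markers and from 0.12 to 0.21 for the 100 genes. From 24 to 28 DPA it went from 1.28 to 0.81 for the markers and from 0.52 to 0.44 for the 100 genes. At 1 DPA 6 of the 13 were lower and 0 higher, with a median of -0.69, and at 3 against 2 DPA 7 were higher, with a median of 0.62, while the medians of the 100 genes were 0.00 and 0.07. At 18 against 10 DPA 9 of the 13 were higher, with a median of 0.71. The part of cell composition and cell division in the differences of the 100 genes was not tested.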

How the data were processed

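The deposited values are log2 intensities, which the authors had normalized with RMA, run in Affymetrix Expression Console (versions not given in the sources used here). RMA gives all arrays a like distribution, so a difference is relative to the other probes. Arrays were grouped by the time in their labels. The 2 arrays of 0.5 DPA whose source name gives another time were kept there. Of 20080 probes 45 controls were left out, and no filter on low values was used. Array medians ran from 5.70 to 5.91. An array has no read depth, and the number of arrays limits the precision.

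Each pair of time points had its own fit of their arrays by lmFit and eBayes (limma 3.58.1, R 4.3.3), with Benjamini-Hochberg adjustment over 20035 probes. Differences between replicates 1 to 5 and 6 to 10 were fitted as an interaction. The scripts were tested on simulated data. Tables and figures used Python 3.11.15, numpy 2.4.6, pandas 2.3.3 and matplotlib 3.10.9.

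The genes, roles, lists and comparisons were chosen with earlier results of these data known. Genes named with full values are up to 3 largest rises and falls past the threshold in each of 8 comparisons (1/0, 3/2, 9/3, 10/9, 18/10, 20/18, 28/20 and 24/0 DPA) with the same sign in both sets of replicates, the 2 genes of each role with the largest range of means, and a list of 23 spliceosome genes, of which 18 have a probe. Others are named as examples within their class. Of 92 other splicing genes listed, 70 had a probe. Alternatives changed the arrays fitted, the test, the threshold, the normalization, the filter, the blocks and the probe rule.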

Additional observations from a re-analysis of the deposited data

Results flagged for a closer look

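In 82 groups of arrays, the 20 time points of the mean over the 100 genes and the 0 and 24 DPA arrays of 31 named genes, 9 held an array far from its group. An array was set apart when its gap to the nearest other array, as a share of the group's range, was above Dixon's critical value, a limit built so that chance passes it in about 1 group in 20. The mean over the genes had a low array at 2 DPA (0.0066) and at 14 DPA (0.27). At 0 DPA the lowest arrays of HNRNPA1 (6.42), HNRNPH3 (6.70), HNRNPU (11.24) and TRA2B (10.17) stood apart, all of them replicate 5, and the highest arrays of RBM24 (4.97) and SF3B2 (8.92) stood apart too. At 24 DPA SF3B2 had a low array (8.85).

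The change between days differed between the sets of replicates for 18 results by limma's interaction (adjusted p under 0.05), each given as replicates 6 to 10 minus replicates 1 to 5. At 24 against 0 DPA, where replicates 1 to 5 keep their code letters and 6 to 10 do not, the values were -0.84 for RBM14, -0.60 for DHX9 and -0.41 for CWC15. At 3 against 2 DPA they were 0.82 for CWC22, 0.50 for DHX36, 0.41 for U2AF1, 0.40 for LSM14A, -0.36 for HNRNPU, -0.53 for SF1 and -0.80 for HNRNPUL1. At 20 against 18 DPA they were 0.55 for RBM27, 0.53 for HNRNPA2B1, 0.46 for PRPF18, -0.40 for RBM12, -0.44 for RBM14, -0.46 for U2AF2, -0.53 for LSM12 and -0.55 for SF3B3. Over all probes the interaction passed for 2.76% at 24 against 0 DPA, 5.12% at 3 against 2 DPA and 5.71% at 20 against 18 DPA, and for 0 of the 100 genes in the other 5 comparisons (at most 0.883% of probes). In the steps from 2 to 3 and from 18 to 20 DPA the code letters change in both sets, and time and code cannot be told apart.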

How the results depend on the processing

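Of 198 values of the numbers of genes higher or lower in 8 comparisons under the alternatives, 20 left the range of 1.5 times the main number, and of the 23 differences of named genes none turned its sign. At 24 against 0 DPA the numbers higher ran from 32 (replicates 6 to 10 alone) to 50 (replicates 1 to 5 alone). Without the fold threshold the numbers were 9 higher and 6 lower at 1 against 0 DPA, 13 and 3 at 3 against 2 DPA, 28 higher at 9 against 3 DPA, 37 and 2 at 18 against 10 DPA, 1 lower at 20 against 18 DPA, and 76 and 2 at 24 against 0 DPA. Arrays centred on their median and a second quantile normalization each gave 3 higher at 1 against 0 DPA. Replicates 1 to 5 alone gave 5 higher at 1 against 0 DPA, 1 lower at 3 against 2 DPA, 3 higher at 9 against 3 DPA, 0 lower at 18 against 10 DPA and 1 lower at 28 against 20 DPA. Replicates 6 to 10 alone gave 0 higher at 3 against 2 DPA and 2 higher at 20 against 18 DPA. The mean over the probes of a gene gave 1 lower at 24 against 0 DPA. The causes were not tested. The alternatives without 0 DPA replicate 5 (41 higher at 24 against 0 DPA) and without 2 DPA replicate 4 (HNRNPA1 at 1.07 at 3 against 2 DPA) were chosen after seeing the data.

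The difference at 24 against 0 DPA no longer passed for DHX57 in replicates 1 to 5 alone (0.57), for DHX15 (0.49) and PRPF31 (0.39) in replicates 6 to 10 alone, for DHX8 with the mean over probes (0.45), and for SF3B2 with a second quantile normalization (0.55), in replicates 6 to 10 alone (0.54) and with the mean over probes (0.18). The replicate number as a block gave 42 higher and 0 lower at 24 against 0 DPA and changed no other number. The labels tie the numbers to no shared source. Over the 8 comparisons the correlations of same-numbered arrays' deviations ran from -0.39 to 0.41, from 1 to 8 pairs of a comparison were over 0.1, and from 0 to 2 of its later arrays correlated best with their own number.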
